A study of Mus musculus with 6 samples.

Results

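Cyclins, cyclin-dependent kinases (CDKs) and the CDK-binding subunits Cks1b and Cks2 were compared between RAW264.7 mouse macrophages after transfection of a mimic of miR-342-3p or of a negative control mimic. The 36 genes were listed by name, and each was measured by the probe set annotated to it alone that had the largest interquartile range over the 6 arrays. This gave 35 measured genes among the 19938 genes of the data, and Ccnb1 had no such probe set. By role, 16 of the listed genes belong to the cell cycle (15 measured), 11 to transcription, 2 to both (Ccnh and Cdk7), and 7 have other or less settled roles.

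RAW264.7 is an established mouse macrophage line, derived from a tumor induced by Abelson murine leukemia virus, that divides continuously in culture. Cells plated at 500000 per well received 30 nM of either a mimic of miR-342-3p, which is a synthetic double-stranded RNA that delivers the mature microRNA, or a scrambled negative control mimic, and total RNA was isolated 18 h later. Both groups therefore share the cell line, the transfection and the time point, and untransfected cells were not analysed here. There were 3 control and 3 miR-342-3p arrays, each hybridized with 1 sample from 150 ng of RNA. The samples within a group came from independent experiments per the study, and p-values measure the spread between these samples. The deposited values are log2 intensities after robust multi-array averaging (RMA), and a log2 fold change is the mean of the miR-342-3p arrays minus that of the controls. A gene was called when its false discovery rate (FDR), the limma p-value adjusted by the Benjamini-Hochberg method over all 19938 genes, was under 0.1.

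Spread was larger among the arrays with miR-342-3p than among the controls, with array weights of 0.235 to 0.925 and 1.69 to 3.36, and miR-342-3p replicate 3 lay between the controls and the other miR-342-3p arrays on the first principal component, which held 61.1% of the variance. All 10 macrophage markers were measured, with a summed log2 value of 102.5 to 102.7 in the controls and 100.8 to 102.5 in the miR-342-3p arrays. Of these 10, 2 were called lower (Itgam and Fcgr1, both with a log2 fold change of -0.35) and 1 higher (Spi1, 0.35). Of all 19938 genes 7.42% were called lower and 4.14% higher, and of the brightest quartile by mean signal 15.2% and 7.40%. Among the macrophage markers the largest change was that of Ptprc, at -0.59 without overlap, which was not called (FDR 0.156) and ranged from -1.22 to -0.15 over the miR-342-3p arrays. Among them Lyz2 had a mean of 12.38 in the controls and 12.41 with miR-342-3p, Csf1r of 11.39 and 11.44, and Mrc1, a marker of alternative activation, stayed near 5.75 and 5.78 in the dimmest quartile of all genes. The 6 fibroblast markers summed to 39.3 to 39.6 in the controls and 40.1 to 41.8 with miR-342-3p, and 1 of them, Pdgfra, was called higher (log2 fold change 0.49). The 6 measured lymphocyte markers of 7 (32.7 to 33.2 and 32.8 to 35.1) and the 4 epithelial markers (26.2 to 26.8 and 26.8 to 27.3) had no called gene by limma, with 1 and 0 higher at an unadjusted p under 0.05. Array values have no true zero, and the part of other cells in the results was not tested. In these bulk samples, fewer cells in a phase of the cell cycle and less RNA per cell cannot be told apart.

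Cyclins are regulatory subunits without catalytic activity of their own, and a CDK becomes active when it binds one. In the cell cycle, D-type cyclins with Cdk4 or Cdk6 act in G1 and phosphorylate the retinoblastoma protein, cyclin E with Cdk2 acts at the entry into S phase, cyclin A with Cdk2 and Cdk1 in S and G2, and cyclin B with Cdk1 drives mitosis. Another branch of the family phosphorylates RNA polymerase II and the proteins around it: cyclin T with Cdk9 forms P-TEFb, cyclin K pairs with Cdk12 and Cdk13, and cyclin C with Cdk8 or Cdk19 forms the kinase module of Mediator. Cyclin H with Cdk7 does both, as the CDK-activating kinase and as a part of the general transcription factor TFIIH.

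The microRNA that was added is shown first, because its seed is the part of it that pairs with target transcripts. In the RefSeq annotation of the build GRCm38.p6, mmu-miR-342-3p lies at chr12:108658680-108658702 on the + strand and is 23 bases long, with the seed (bases 2 to 8) in capitals.
mmu-miR-342-3p: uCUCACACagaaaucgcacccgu

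Promoters are shown for the 4 called members that the RefSeq promoter table held: Cdk6, the largest fall of a cell cycle kinase, Ccnb2, a mitotic cyclin, Ccnc, a transcription cyclin, and Cdk16, the rise. Each sequence covers 250 bases before and 50 bases from the annotated start (GRCm38.p6), in the direction of the gene. Capitals mark matches on either strand to the E2F site (TTTCCCGC, TTTGGCGC or TTTCGCGC), the cell cycle homology region or CHR (TTTGAA or TTCGAA) and the CCAAT box (CCAAT). The motifs were searched separately, so that overlapping letters could count for more than one.
Cdk6, chr5:3343643-3343942, + strand: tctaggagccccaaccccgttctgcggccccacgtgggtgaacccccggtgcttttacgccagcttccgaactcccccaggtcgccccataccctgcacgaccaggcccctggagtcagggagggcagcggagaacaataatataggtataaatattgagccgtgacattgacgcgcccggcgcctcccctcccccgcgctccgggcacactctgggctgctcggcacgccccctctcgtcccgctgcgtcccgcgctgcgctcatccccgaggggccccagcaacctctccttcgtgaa
Ccnb2, chr9:70421505-70421804, - strand: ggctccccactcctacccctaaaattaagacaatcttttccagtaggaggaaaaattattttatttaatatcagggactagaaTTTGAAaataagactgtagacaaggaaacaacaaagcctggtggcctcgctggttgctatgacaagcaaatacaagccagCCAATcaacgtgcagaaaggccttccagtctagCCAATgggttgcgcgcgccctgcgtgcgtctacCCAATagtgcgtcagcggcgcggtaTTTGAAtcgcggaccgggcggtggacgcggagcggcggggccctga
Ccnc, chr4:21727451-21727750, + strand: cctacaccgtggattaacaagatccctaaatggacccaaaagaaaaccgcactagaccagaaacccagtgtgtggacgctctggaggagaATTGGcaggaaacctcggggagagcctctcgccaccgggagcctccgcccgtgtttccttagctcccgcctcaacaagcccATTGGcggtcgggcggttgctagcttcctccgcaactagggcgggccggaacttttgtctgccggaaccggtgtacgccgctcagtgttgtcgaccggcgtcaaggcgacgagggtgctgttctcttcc
Cdk16, chrX:20687704-20688003, + strand: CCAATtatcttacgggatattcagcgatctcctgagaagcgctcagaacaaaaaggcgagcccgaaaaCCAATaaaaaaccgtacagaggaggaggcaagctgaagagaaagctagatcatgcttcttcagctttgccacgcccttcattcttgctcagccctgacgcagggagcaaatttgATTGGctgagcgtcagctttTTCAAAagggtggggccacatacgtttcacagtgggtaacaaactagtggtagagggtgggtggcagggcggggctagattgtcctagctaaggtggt

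The Ccnb2 promoter held CCAAT at 3 places near the start (at -87, -54 and -21, where -1 is the last base before it) and TTTGAA just past it, at 5, whereas the Cdk6 window held no match to any motif. The Cdk6 window lay inside the annotated gene (chr5:3341004-3531008), so that it did not cover the first base of the gene. A promoter entry was found for 28 of the 36 listed genes, and none for Ccnd1, Ccnd2, Ccne2, Ccna2, Cdk19, Ccnh, Cdk5 and Cdk17. Of the 12 cell cycle genes with an entry, 4 (Ccnb2, Ccnf, Cdk1 and Cks1b) held a CHR, and all 4 also held a CCAAT box. CCAAT was found in 9 of the 12, and an E2F site in 2 (Cdk2 and Cdk1). None of the 10 transcription genes with an entry held a CHR or an E2F site, and 5 held CCAAT (Ccnc, Ccnk, Ccnt2, Cdk9 and Ccnl2). Of the 5 other members with an entry, 2 held a CHR (Ccni and Cdk16), 2 CCAAT (Cdk16 and Cdk18) and none an E2F site. Cdk7 held no match. Among all 32851 promoter entries, 19.2% held a CHR, 37.4% CCAAT, 7.52% both and 1.84% an E2F site. The members are counted per gene and the background per entry. A match describes these letters in this window and shows no binding.

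Among the listed genes, those called lower with miR-342-3p were mostly cell cycle genes, which were also the largest group. Of the 35 measured genes, 7 fell (Ccnd1, Cdk6, Ccne2, Ccna2, Ccnb2, Ccnc and Ccnh), 1 rose (Cdk16) and 27 were not called. Among all 19938 genes, 7.42% were called lower and 4.14% higher. The cell cycle group held 5 of the 7 falls, or 33.3% of its 15 measured genes. In the transcription group 1 of 11 genes (9.09%) fell. No cell cycle and no transcription member was called higher by limma or by the methods' t-test after adjustment, and at an unadjusted p under 0.05 limma gave 1 cell cycle gene (Ccna1) and 0 transcription genes.

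All 3 miR-342-3p arrays lay below all 3 controls for 10 of the 15 cell cycle genes, above them for Ccna1, and overlapped for the remaining 4, where 15.5% of all genes lay below and 21.4% above. The same held for 2 transcription genes below (Ccnc and Cdk19), 2 above (Cdk13 and Ccnl1) and 7 with overlap. The median log2 fold change was -0.24 over the cell cycle genes, -0.08 over the transcription genes and 0.069 over all genes. By array, the median change from the control mean was -0.35, -0.16 and -0.20 for the cell cycle genes and -0.14, -0.03 and 0.07 for the transcription genes in miR-342-3p replicates 1, 2 and 3. The cell cycle median was thus the lower one in each array, and it was -0.27 with the arrays centred on their medians and -0.20 after repeated quantile normalization. For the transcription genes these scalings gave -0.11 and -0.02, and their median was -0.03 without miR-342-3p replicate 1, -0.03 without replicate 2 and -0.13 without replicate 3. The difference between the groups has no test, because the genes were chosen with results of these data known.

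Most of these genes gave a bright signal. The mean over the arrays was in the brightest quartile of all genes for 12 of the 15 cell cycle and 9 of the 11 transcription genes. In that quartile 15.2% of genes were called lower, 7.40% were called higher, 33.6% lay below the controls without overlap, and the median log2 fold change was -0.064. The part of signal level in the member counts was not tested.

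The calls rested on few arrays. Without control replicate 1 the members called lower went from 7 to 1 (Cdk6), without control replicate 2 to 0 (limma, with 10 lower at an unadjusted p under 0.05), without control replicate 3 to 1 (Ccnb2), and without miR-342-3p replicate 2 to 11. For the cell cycle group the same omissions gave 1, 0, 1 and 8 in place of 5. Over the whole table the genes called lower fell from 1479 to 102, 115 and 140 without control replicates 1, 2 and 3. They rose to 1830 without miR-342-3p replicate 2. Each of the 8 called members kept its direction in all 17 alternatives. Most alternatives could not change a sign, because these genes did not overlap between the groups and had 1 probe set each. Cdk6 and Ccnb2 were called in 14 of the alternatives.

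**Figure D1:**
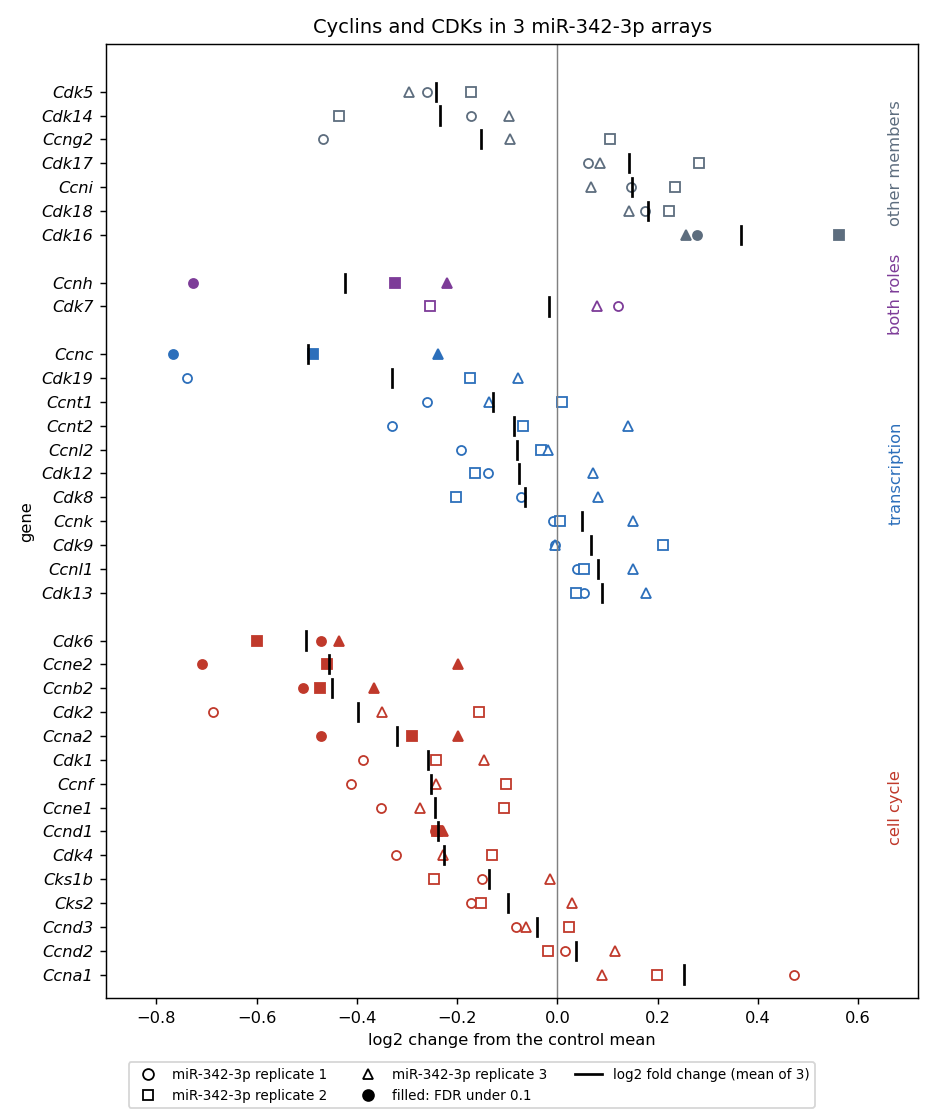
Change of each measured member in each miR-342-3p array, as log2 value minus the mean of the 3 controls (x axis, log2 units), with genes grouped by role on the y axis. Circles, squares and triangles are miR-342-3p replicates 1, 2 and 3, bars their mean and filled symbols genes at an FDR under 0.1; 10 of the 15 cell cycle genes lie below all controls.

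Of the G1 genes, Ccnd1 and Cdk6 fell, and the other 3 were not called. Cdk6, a catalytic partner of the D-type cyclins, gave 11.04, 11.07 and 11.07 in control replicates 1, 2 and 3 and 10.59, 10.46 and 10.62 in the miR-342-3p replicates. All 3 miR-342-3p arrays were low, and its mean went from 11.06 ± 0.021 to 10.56 ± 0.086 (SD, n = 3), which is 1.42-fold lower (log2 fold change -0.50 ± 0.077 SE, FDR 0.016). Ccnd1 encodes cyclin D1, which couples growth factor signals to the cell cycle. It gave 11.62, 11.63 and 11.62 in the controls and 11.38, 11.39 and 11.40 with miR-342-3p. The arrays of a group were nearly level and the groups did not overlap, and a fall of 1.18-fold was called (log2 fold change -0.24 ± 0.069 SE, FDR 0.080). Its FDR was 0.101 after repeated quantile normalization. Cdk4, the other kinase of the D-type cyclins, did not overlap between the groups either, but its log2 fold change of -0.23 had an FDR of 0.122. The remaining D-type cyclins overlapped, with log2 fold changes of 0.04 for Ccnd2 and -0.04 for Ccnd3 (FDR 0.745 and 0.737).

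Of the genes that act at the entry into and during S phase, Ccne2 and Ccna2 fell. Cyclin E2 (Ccne2), a partner of Cdk2, gave 9.04, 8.91 and 8.92 in the controls and 8.25, 8.50 and 8.76 with miR-342-3p. The miR-342-3p arrays were unequal, with replicate 1 the lowest and replicate 3 the nearest to the controls, and none overlapped them (log2 fold change -0.46 ± 0.12 SE, 1.37-fold lower, FDR 0.070). The call was lost without miR-342-3p replicate 1 (log2 fold change -0.33, FDR 0.113) or replicate 2 (-0.45, FDR 0.105). Ccna2, the cyclin A of somatic cells, gave 11.59, 11.65 and 11.61 in the controls and 11.14, 11.32 and 11.42 with miR-342-3p, where replicate 1 was again the lowest. It was 1.25-fold lower (log2 fold change -0.32 ± 0.088 SE, FDR 0.070). Cdk2 had a log2 fold change of -0.40 and no overlap, but its arrays with miR-342-3p ranged from 8.92 to 9.45, and its FDR of 0.103 was just above the threshold. It passed in 6 of the 17 alternatives, and without miR-342-3p replicate 1 its log2 fold change was -0.25. Ccne1 had a log2 fold change of -0.24 (FDR 0.123), again without overlap.

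Ccna1, the germ cell cyclin A, was the only cell cycle gene whose miR-342-3p arrays all lay above the controls. It had 5.58, 5.56 and 5.56 in the controls and 6.03, 5.76 and 5.65 with miR-342-3p (log2 fold change 0.25, FDR 0.170). Its signal lay in the dimmest quartile of all genes, in which the median change was 0.20, 0.016 and 0.048 in miR-342-3p replicates 1, 2 and 3. Its log2 fold change was 0.14 without miR-342-3p replicate 1 (FDR 0.237), and 0.33 without replicate 3, where it was called (FDR 0.067).

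Among the mitotic genes Ccnb2 fell, and the kinase that it activates did not pass the threshold. Cyclin B2 (Ccnb2) gave 11.21, 11.29 and 11.09 in the controls and 10.69, 10.72 and 10.83 with miR-342-3p. The groups were clearly apart, and the mean went from 11.19 ± 0.10 to 10.75 ± 0.075 (SD, n = 3), or 1.37-fold lower (log2 fold change -0.45 ± 0.084 SE, FDR 0.026). Cdk1, which binds cyclins A and B, was lower without overlap in all 3 arrays (log2 fold change -0.26, FDR 0.108). So was Ccnf, the F-box protein that gave F-box proteins their name (log2 fold change -0.25, FDR 0.137). Cks1b and Cks2, small proteins that dock CDKs on phosphorylated substrates, overlapped between the groups at -0.14 and -0.10 (FDR 0.310 and 0.446). The other probe sets of Cks2 gave -0.125 and -0.027. Among the cell cycle genes with a CHR in the promoter entry, Ccnb2 was thus called lower and Cdk1, Ccnf and Cks1b were not called. Outside this group a CHR was also found for Cdk16, which was called higher, and for Ccni, which was not called.

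**Figure D2:**
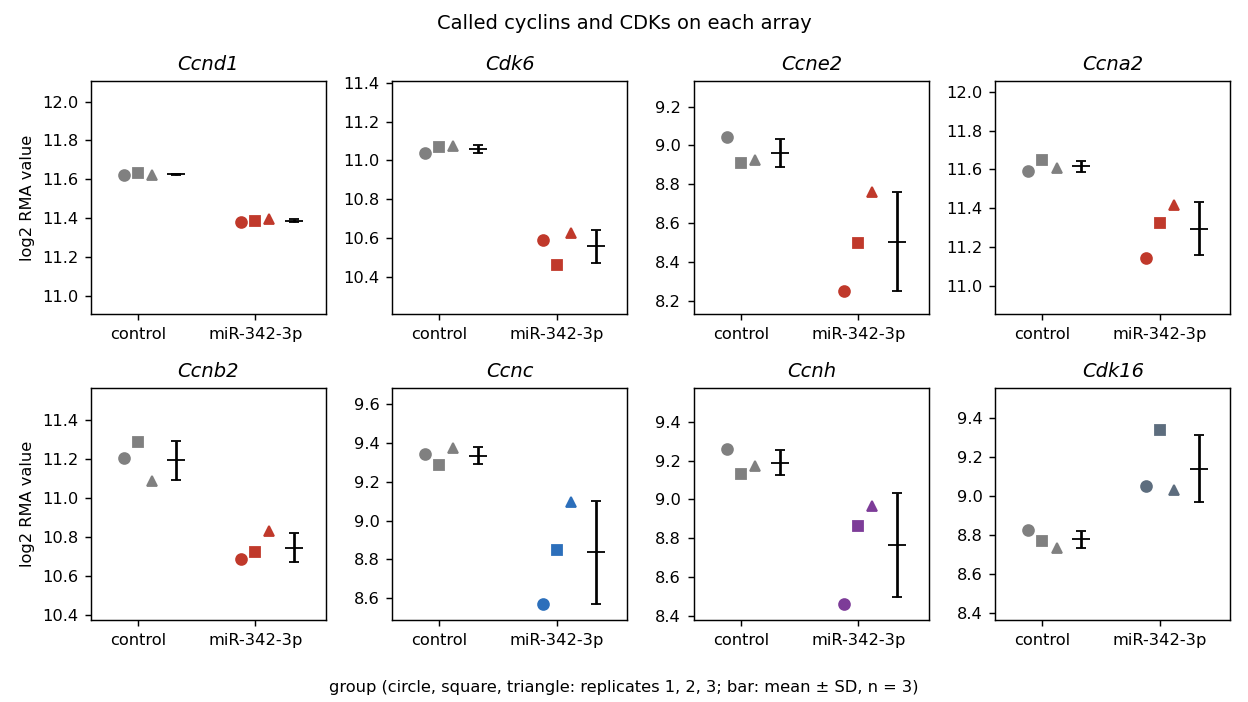
Log2 RMA value (y axis) of the 8 called members in each control and miR-342-3p array (x axis), with symbols by replicate number and the mean ± SD of 3 arrays beside them. Every panel spans the same height in log2 units, though its limits differ; no gene overlaps between the groups, and the miR-342-3p arrays are spread most for Ccnc, Ccnh and Ccne2.

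Among the transcription genes Ccnc fell, and the other 10 were not called. Ccnc encodes cyclin C of the Mediator kinase module. It gave 9.34, 9.29 and 9.37 in the controls and 8.57, 8.85 and 9.10 with miR-342-3p. Replicate 1 was the lowest and replicate 3 the nearest to the controls, as for Ccne2 and Ccna2, and no array overlapped (log2 fold change -0.50 ± 0.12 SE, 1.41-fold lower, FDR 0.057). Of the kinases of that module, Cdk19 had 8.62, 8.62 and 8.51 in the controls and 7.84, 8.41 and 8.50 with miR-342-3p. Its log2 fold change of -0.33 came largely from replicate 1 and was not called (FDR 0.220), and without that array it was -0.13. The transcription group had 0 falls without control replicate 1, 2 or 3 (limma, with 1 at an unadjusted p under 0.05 each time) and 2, Ccnc and Cdk19, without miR-342-3p replicate 3. Cdk8 had a log2 fold change of -0.06 (FDR 0.644), and a further probe set that is annotated to Cdk8 together with another gene was not used.

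The cyclins and kinases of transcription elongation had log2 fold changes between -0.13 and 0.09, with none called. For P-TEFb these were -0.13 for Ccnt1, -0.09 for Ccnt2 and 0.07 for Cdk9. For cyclin K and its kinases they were 0.05 for Ccnk, -0.08 for Cdk12 and 0.09 for Cdk13, and a dimmer probe set of Cdk12 gave 0.104. The cyclins L, which bind CDKs tied to splicing, had 0.08 for Ccnl1 and -0.08 for Ccnl2. The lowest FDR among these 8 genes was 0.353. All miR-342-3p arrays of Cdk13 and Ccnl1 lay above the controls, by small margins.

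Of the pair with roles in both processes Ccnh fell and Cdk7 was not called. Ccnh, the cyclin of the CDK-activating kinase, gave 9.26, 9.13 and 9.17 in the controls and 8.46, 8.86 and 8.97 with miR-342-3p. It fell without overlap, most in replicate 1 (log2 fold change -0.42 ± 0.13 SE, 1.34-fold lower, FDR 0.089), and its FDR was 0.117 with the arrays centred on their medians. Without miR-342-3p replicate 1 its log2 fold change was -0.27 (FDR 0.092). Its kinase Cdk7 overlapped between the groups, at -0.02 by its chosen probe set, which lies in the dimmest quartile, and at -0.039 by another (FDR 0.924 for the former). The difference between Ccnh and Cdk7 was not tested. Counting both genes with the transcription group made its falls 2 in place of 1.

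Of the 7 other members 1 rose (14.3%) and none fell, with a median log2 fold change of 0.14. Above the controls without overlap lay 4 of the 7. Of all genes 4.14% were called higher and 7.42% lower, and 21.4% lay above without overlap. In the brightest quartile 7.40% were called higher, and 18.9% lay above without overlap. Cdk16, a PCTAIRE kinase that is activated by cyclin Y, gave 8.83, 8.77 and 8.73 in the controls and 9.05, 9.34 and 9.03 with miR-342-3p. Replicate 2 was the highest, all miR-342-3p arrays were above the controls, and the gene rose 1.29-fold (log2 fold change 0.37 ± 0.097 SE, FDR 0.065). With the arrays centred on their medians its FDR was 0.140, and it was not called without control replicate 1, 2 or 3 (log2 fold change 0.39, 0.36 and 0.34). The PCTAIRE kinases Cdk17 and Cdk18 had log2 fold changes of 0.14 and 0.18 (FDR 0.301 and 0.160), both without overlap, as did Ccni, an atypical cyclin (0.15, FDR 0.246). Cdk5, a kinase best known from neurons, and Cdk14, a kinase that also binds cyclin Y, lay below the controls without overlap at -0.24 and -0.23 (FDR 0.120 and 0.181). Ccng2, an unconventional cyclin linked to cell cycle arrest, overlapped at -0.15. No gene of this group was called lower by limma, and 2 were lower at an unadjusted p under 0.05.

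**Figure D3:**
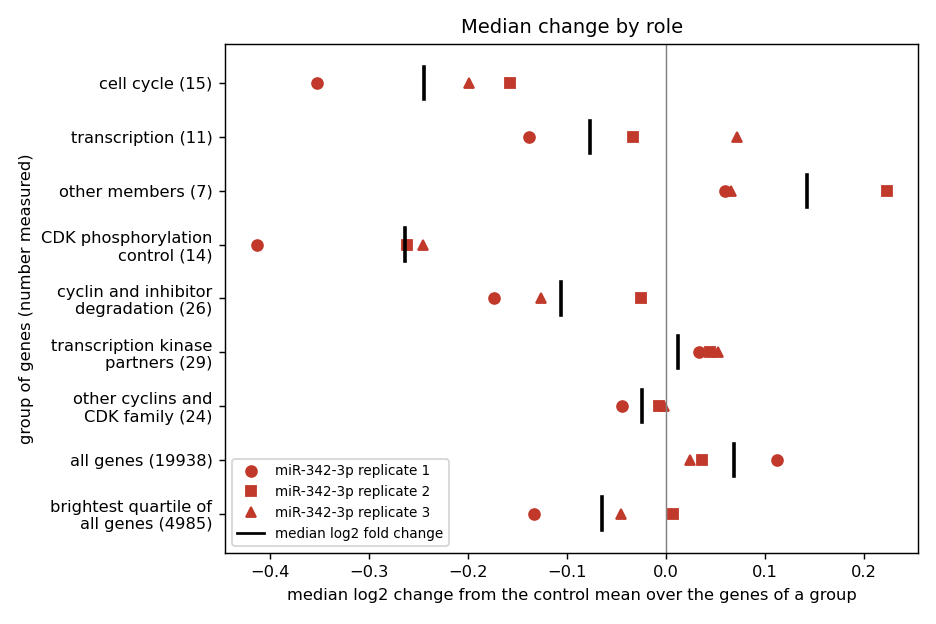
Median over each role and list of the log2 difference from the control mean (x axis, log2 units), in each miR-342-3p array (symbols) and for the log2 fold change (bars), with the number of measured genes in parentheses on the y axis. The cell cycle median lies below that of the transcription genes and below that of the brightest quartile of all genes in each array; Ccnh and Cdk7 are not drawn.

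Close relatives were then compared within each array, because a difference of both log2 values cancels what an array does to both genes alike. Shifts that differ with signal level do not cancel. In miR-342-3p replicate 1 the median change was 0.20 in the dimmest quartile of all genes and -0.13 in the brightest. Control levels within a pair differed by 0.26 log2 units for Cdk12 and Cdk13 and by up to 4.14 for Ccnd1 and Ccnd2. The part of signal level in the pair differences was not tested. Of 11 pairs 10 could be measured, without the pair of Ccnb1 and Ccnb2. The changes of both genes of a pair differed without overlap of the arrays in 5 of the 10. The change of Ccnd1 minus that of Ccnd2 was -0.27, and minus that of Ccnd3 -0.20. Cdk4 minus Cdk6 was 0.28, Cdk12 minus Cdk13 -0.17 and Ccnl1 minus Ccnl2 0.16. For each of these 5 the exact two-sided permutation p was 0.1, the smallest that 3 against 3 arrays allow, and 0.2 after adjustment over the 10 pairs, so that no pair could pass.

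The other 5 pairs overlapped between the groups, with exact permutation p-values of 0.3 to 1. Ccne1 minus Ccne2 was 0.36, 0.35 and -0.08 in miR-342-3p replicates 1, 2 and 3, and Cdk8 minus Cdk19 was 0.67, -0.03 and 0.16. In both, 1 array went against the others. The differences were 0.08 for Ccnd2 and Ccnd3, -0.04 for Cks1b and Cks2 and -0.04 for Ccnt1 and Ccnt2. The sign was kept in 8 of 8 alternatives for all pairs other than Ccnt1 and Ccnt2, which kept it in 7.

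**Figure D4:**
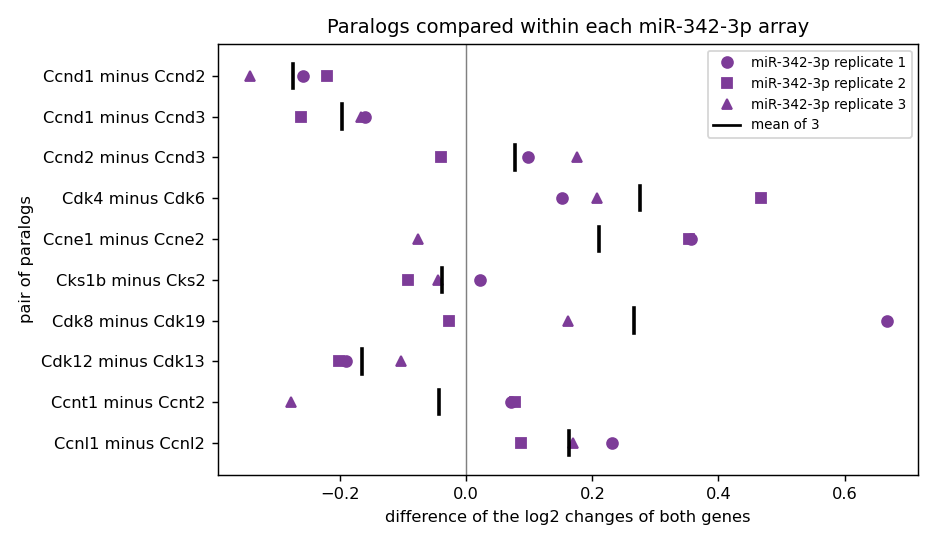
Difference of the log2 changes of related genes, first minus second (x axis, log2 units), in each miR-342-3p array (symbols) and as the mean of 3 (bars), for 10 pairs (y axis). The 3 arrays lie on one side of 0 for Ccnd1 against Ccnd2 and Ccnd3, Cdk4 against Cdk6, Cdk12 against Cdk13 and Ccnl1 against Ccnl2.

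Genes that control CDKs by phosphorylation and dephosphorylation fell in 8 of 14 cases (57.1%), all measured, where 7.42% of all genes and 15.2% of the brightest quartile were called lower. None was called higher by limma (1 higher at an unadjusted p under 0.05), with a median log2 fold change of -0.26. The largest falls were those of Mastl, the Greatwall kinase that holds back the phosphatase opposing Cdk1 (log2 fold change -0.91, FDR 0.057), and Arpp19, its substrate (-0.61, FDR 0.051). Cdkn3, a phosphatase that acts on Cdk2, followed with -0.54 (FDR 0.026) and Cdc25c, a phosphatase that activates Cdk1, with -0.47 (FDR 0.069). Mastl was unequal between arrays, at -0.99, -1.43 and -0.32 in miR-342-3p replicates 1, 2 and 3. The called genes also held Wee1 (-0.29) and Pkmyt1 (-0.23), kinases that inhibit Cdk1, besides Cdc14b and Ppp2r2d. The other Cdc25 phosphatases, which also activate CDKs, overlapped between the groups, with log2 fold changes of -0.03 for Cdc25a and -0.13 for Cdc25b (FDR 0.818 and 0.395).

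Of the genes that degrade cyclins and CDK inhibitors, 26 of 27 were measured, 4 fell (15.4%, near the 15.2% of the brightest quartile) and none was called higher by limma (2 at an unadjusted p under 0.05), with a median of -0.11. These were Fbxo5, an inhibitor of the anaphase-promoting complex (-0.57), Cul1, the scaffold of SCF ligases (-0.39), Cdc26, a subunit of the anaphase-promoting complex (-0.30), and Skp2, the F-box protein for the CDK inhibitor p27 (-0.25). Among partners of the transcription kinases, 29 of 32 were measured, 2 fell (6.90%) and 1 rose (3.45%), shares near the 7.42% and 4.14% of all genes, with a median of 0.01. Larp7, which binds the 7SK RNA that restrains P-TEFb, was called at -0.76 (FDR 0.025) by the chosen one of its 2 probe sets. Gtf2h3, a subunit of TFIIH, was called at -0.25, and Mllt1, a subunit of the super elongation complex, at 0.34. Of further cyclins and relatives of CDKs, 24 of 26 were measured, with 3 lower (12.5%; Cdkl3 -0.39, Cdk5rap2 -0.36 and Cdk11b -0.34), 1 higher (4.17%; Ccno 0.33) and a median of -0.02.

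The called members were followed through the alternatives, in which 1 array was left out or another choice of processing was made. Ccnc was called in 11 of the 17, Ccnd1, Ccna2, Ccnh and Cdk16 in 10, and Ccne2 in 9. The log2 fold change lay between -0.54 and -0.45 for Cdk6, between -0.50 and -0.40 for Ccnb2 and between -0.63 and -0.36 for Ccnc. For Cdk16 it lay between 0.27 and 0.43.

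**Figure D5:**
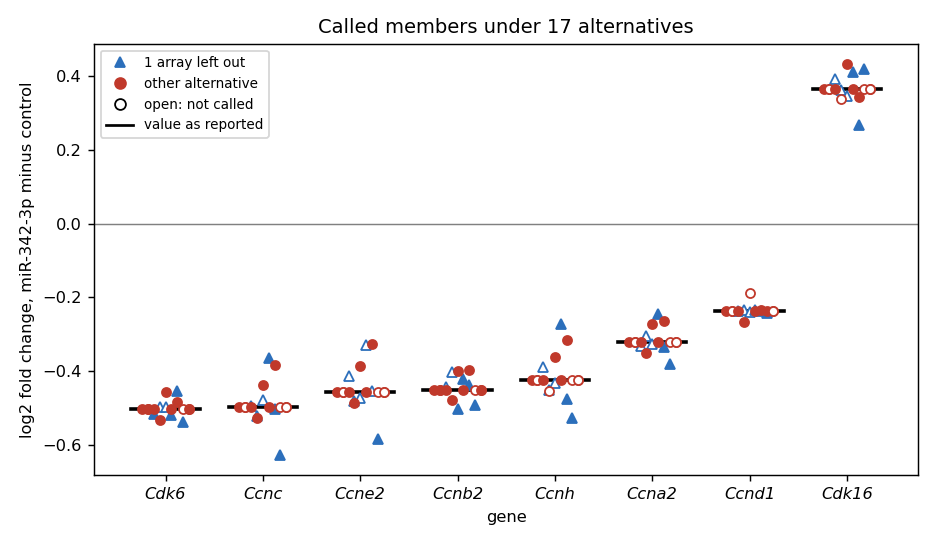
Log2 fold change (y axis, miR-342-3p minus control) of the 8 called members (x axis) under each of 17 alternatives. Triangles leave out 1 array, circles change another choice, open symbols are not called and bars are the values as reported. No symbol crosses 0, though most alternatives could not change a sign, because the groups do not overlap and each gene has 1 probe set.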

How the data were processed

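Total RNA of 3 control and 3 miR-342-3p samples was measured on whole-transcript mouse arrays of Affymetrix. The authors processed the scans with RMA in R, per the study's methods, and deposited 1 log2 value per probe set for 35556 probe sets; versions are not given in the sources used here. Array medians were 6.80 to 6.95. Arrays have no read depth, and their small number bounds the precision.

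Genes were assigned to probe sets from the annotation of the platform (21789 with 1 gene, 1621 with several, 12146 unnamed), and 21698 Entrez matches to RefSeq (GRCm38.p6) changed 0 symbols. Of 999 genes with several probe sets, the one with the largest interquartile range was kept, without a filter on level. The 19938 genes were fitted by limma (version 3.58.1; R version 4.3.3) with lmFit and eBayes (prior of 4.79 and residual of 4 degrees of freedom). The fit was first run on simulated data with equal spread in both groups, which does not bear on the larger spread of the miR-342-3p arrays. Pairs of relatives were compared by an exact permutation test. Plots were made in Python version 3.11.15 with matplotlib version 3.10.9.

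All 36 members are accounted for, with values on every array for those called or with a log2 fold change of 0.5 or more, and Ccna1 and Cdk19 were added after their values were seen. From each further list, up to 4 called genes with the largest changes in a direction are named, besides Wee1, Pkmyt1, Cdc14b, Ppp2r2d, Cdc25a, Cdc25b and the markers, which were chosen after their values were seen. Members, lists and tests were chosen with earlier results of these data known. Results were recomputed with each array left out, a replicate block, other probe sets, a level filter and other scalings. Further alternatives were array weights, a trended and robust prior, an FDR of 0.05 and Student's t-test. The study names that test for comparisons between groups in general, and limma for these arrays.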

Additional observations from a re-analysis of the deposited data

How the results depend on the processing

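With 3 arrays a group, the number of calls depended on single arrays and on the test. Directions of called members did not change in any alternative run, but only the other scalings could have changed them. The called members did not overlap between the groups and had 1 probe set each. Leaving out 1 array at a time gave 0 to 11 members called lower (7 with all arrays), 0 to 2 higher (1), 0 to 8 cell cycle members lower (5), 0 to 1 higher (0) and 0 to 2 transcription members lower (1). The same runs called 102 to 2422 of all genes lower and 88 to 2104 higher. With all probe sets tested 2 members were called lower and 0 higher, 2 of them cell cycle and 0 transcription members, and an FDR under 0.05 gave the same counts (at an unadjusted p under 0.05, all probe sets gave 2 members higher and 1 transcription member lower). Of all 19938 genes, all probe sets gave 314 lower and 201 higher, and an FDR under 0.05 gave 661 and 312. Student's t-test gave 1 lower, a cell cycle gene (Ccnd1), with 0 transcription members and 0 higher (at an unadjusted p under 0.05, 11 lower and 3 higher). Among all 19938 genes it called only 22 lower and 26 higher. With genes above the median level 13 were lower, 10 of them in the cell cycle, and 2 higher. Of the 9969 genes at that level, 1952 were lower and 1086 higher. With a trend and robust prior 11 were lower, 9 of them in the cell cycle, and 2 higher. This prior gave 1763 lower and 972 higher among all genes. With the arrays centred on their medians 0 members were called higher (2 at an unadjusted p under 0.05), and after repeated quantile normalization 3. Over all genes these scalings gave 1379 lower and 408 higher, and 1424 lower and 1817 higher, against 1479 and 825. With Ccnh and Cdk7 the transcription group had 2 lower. The cause of these differences was not tested.

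Same-numbered arrays did not deviate together (correlations of deviations -0.31, -0.16 and -0.11), and whether same-numbered samples shared a transfection is not given in the labels. With the replicate block 6 members were called lower (Cdk2 in, Ccnd1 and Ccna2 out) and 1 higher, as 4 cell cycle and 1 transcription member lower. The block gave 1445 lower and 550 higher among all genes.

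Among members that were not called, some signs changed. By leaving out 1 array, log2 fold changes ranged from -0.000928 to 0.0651 for Ccnd2, -0.281 to 0.00507 for Ccng2, -0.0012 to 0.0782 for Ccnk, -0.200 to 0.0359 for Ccnt2, -0.0871 to 0.101 for Cdk7, -0.137 to 0.0047 for Cdk8 and -0.00445 to 0.103 for Cdk9. Array weights gave 0.0163 for Ccnt2 and 0.00154 for Cdk7, repeated quantile normalization 0.0227 for Ccnd3 and the mean of the probe sets 0.0136 for Cdk12. The medians of both groups moved by less than the spread between arrays.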
